A study of Mus musculus with 8 samples.

Results

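Immediate early genes are transcribed soon after a cell receives a signal, without the need for new protein. In skin, growth factor receptors such as EGFR pass such signals through the kinase ERK, which drives transcription factors of the EGR and AP-1 families and, at the same time, the phosphatases and adaptors that switch ERK off again. Wounding of the epidermis is a textbook trigger of this response.

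The set was defined as those of 10 immediate early and ERK feedback genes (Arc, Fosl1, Fosl2, Fosb, Egr2, Egr3, Atf3, Dusp5, Dusp6 and Maff) that carry a row in the authors' deposited table of changed probe sets. Of the 10, 5 did: Arc, Fosl1, Dusp6, Egr2 and Atf3, each with 1 probe set, among 5080 genes with a symbol in that table. Fosl2, Fosb, Egr3, Dusp5 and Maff carried no row under their symbol or under a RefSeq accession of theirs, so they missed the authors' criteria, were not measured, or lie among the table's 299 rows without a symbol. They are not analysed here.

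Expression was measured on 8 arrays, 1 per embryo, in the back skin of E18.5 embryos, delivered by caesarean, of the C57B/6J background. The 4 KO embryos were KRT14-Cre(tg/0)/Cdsnfl/fl, called Cdsnep-/-, and lacked corneodesmosin, an adhesive protein of the cornified layer, in the epidermis. The 4 WT embryos were KRT14-Cre(tg/0)/Cdsnwt/wt, so both genotypes carried the Cre transgene, which the keratin 14 promoter drives in keratinocytes. All skins, KO and WT, were stripped with an adhesive disk of 22 mm and kept on Dermalife medium at 37 °C for 4 h before RNA was taken from the total skin. The labels give neither litter nor sex, and no unstripped skin is among the samples, so the comparison is of stripped KO skin with stripped WT skin.

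Values are log2 intensities as deposited, and changes are KO minus WT with the standard error (SE) of the limma fit across 33793 probe sets. Cdsn itself stood at 8.09, 8.51, 8.0 and 8.91 in KO replicates 1 to 4, against 11.76, 11.82, 11.69 and 12.10 in WT replicates 1 to 4; which part of the gene the floxed allele removes is not given in the labels. The array medians spanned 4.81 to 4.88 for KO and 4.70 to 4.80 for WT skin. The median change of all probe sets stood at 0.09, and at -0.02 once each array had been centred on its median. Across probe sets, 2 arrays correlated at 0.967 to 0.980 where their genotypes differed and at 0.979 to 0.989 where they were the same. As a check of the tissue, Flg and Lor, which encode proteins of the cornifying keratinocyte, were high in both genotypes, at 12.04 to 12.45 in KO and 12.56 to 13.05 in WT skin.

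The authors' table holds the probe sets whose log2 change exceeds 0.5 in either direction at a Benjamini-Hochberg adjusted p below 0.05. These criteria were met by 16.2% of all probe sets and, for values higher in KO, by 11.8%. The 5 members were therefore chosen by the KO against WT contrast, and their changes are a description with no test. All 5 were higher in KO skin. Atf3 had the smallest change among them, 0.70 against the limit of 0.5, and no rule gene outside the limit carries a name.

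Arc, on chromosome 15, encodes an activity-regulated cytoskeletal protein best known from synapses and, in mice, also from dendritic cells that leave the skin. It read 10.13, 7.83, 8.0 and 9.06 in KO replicates 1 to 4, against 5.86, 6.05, 5.98 and 7.61 in WT replicates 1 to 4. No KO value fell below a WT value, but the lowest KO value, 7.83, and the highest WT value, 7.61, lay close together. The mean was 8.75 ± 1.07 in KO and 6.37 ± 0.83 in WT skin (SD, n = 4 each), a change of 2.38 ± 0.52 (SE) or 5.20-fold. Among the 3760 named genes higher in KO, it ranked 20 by size of change.

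Fosl1, on chromosome 19, encodes FRA-1, an AP-1 subunit that pairs with JUN proteins and accumulates when ERK is active. It read 11.34, 10.82, 9.62 and 11.04 in the 4 KO replicates, against 8.35, 8.60, 7.86 and 9.97 in the 4 WT replicates. The groups overlapped, because WT replicate 4 lay above KO replicate 3. The mean was 10.71 ± 0.76 in KO and 8.70 ± 0.90 in WT skin (SD, n = 4 each), a change of 2.01 ± 0.45 (SE) or 4.03-fold.

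Dusp6, on chromosome 10, encodes a cytoplasmic phosphatase that dephosphorylates ERK, and its transcription is itself driven by ERK. It read 11.50, 11.30, 10.29 and 11.51 in the 4 KO replicates, against 9.39, 9.31, 9.08 and 10.14 in the 4 WT replicates. The groups did not overlap, though KO replicate 3 and WT replicate 4 again lay nearest to each other. The mean was 11.15 ± 0.58 in KO and 9.48 ± 0.46 in WT skin (SD, n = 4 each), a change of 1.67 ± 0.30 (SE) or 3.18-fold.

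Egr2, also on chromosome 10, encodes a zinc finger transcription factor of the EGR family, whose members are induced through serum response elements. It read 8.21, 8.44, 7.12 and 8.21 in the 4 KO replicates, against 6.57, 6.83, 6.45 and 7.31 in the 4 WT replicates. KO replicate 3 lay below WT replicate 4, so the groups overlapped. The change was 1.21 ± 0.28 (SE) or 2.31-fold, from means of 7.99 ± 0.59 in KO and 6.79 ± 0.38 in WT skin (SD, n = 4 each).

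Atf3, on chromosome 1, encodes a stress-induced factor of the ATF/CREB family that binds cAMP response elements. It read 10.87, 10.45, 10.33 and 10.53 in the 4 KO replicates, against 10.05, 9.88, 9.65 and 9.81 in the 4 WT replicates. Its arrays spread least, over 0.54 in KO and 0.40 in WT skin, and the groups did not overlap. The change was 0.70 ± 0.14 (SE) or 1.62-fold, from means of 10.54 ± 0.23 in KO and 9.85 ± 0.17 in WT skin (SD, n = 4 each). Atf3 ranked 1913 among the 3760 named genes higher in KO, near the median change of those genes, 0.70.

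Groups did not overlap in 3 of the 5 members, against 25.0% of all probe sets and 87.6% of the genes named in the authors' table. After centring, the changes were 2.27 for Arc, 1.90 for Fosl1, 1.56 for Dusp6, 1.10 for Egr2 and 0.59 for Atf3. Without KO replicate 3 and WT replicate 4, a setting chosen after seeing the data, they were 3.04, 2.80, 2.18, 1.67 and 0.76 in the same order. Leaving these 2 arrays out favours larger changes, because KO replicate 3 was lowest in KO and WT replicate 4 highest in WT in 4 members each. All 5 genes kept an adjusted p below 0.05 in limma without these 2 arrays, as did 5479 of 33793 probe sets. They also kept it after centring, as did 6040 probe sets. As deposited, 21.3% of all probe sets lay below it. Dusp6 and Atf3 were the 2 that kept it without limma's variance moderation, as did 4923 probe sets. The members were chosen by this threshold on the same arrays, so keeping it gives no support of its own. Because RNA came from whole skin, more cells of a type and more RNA per cell cannot be told apart.

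**Figure D1:**
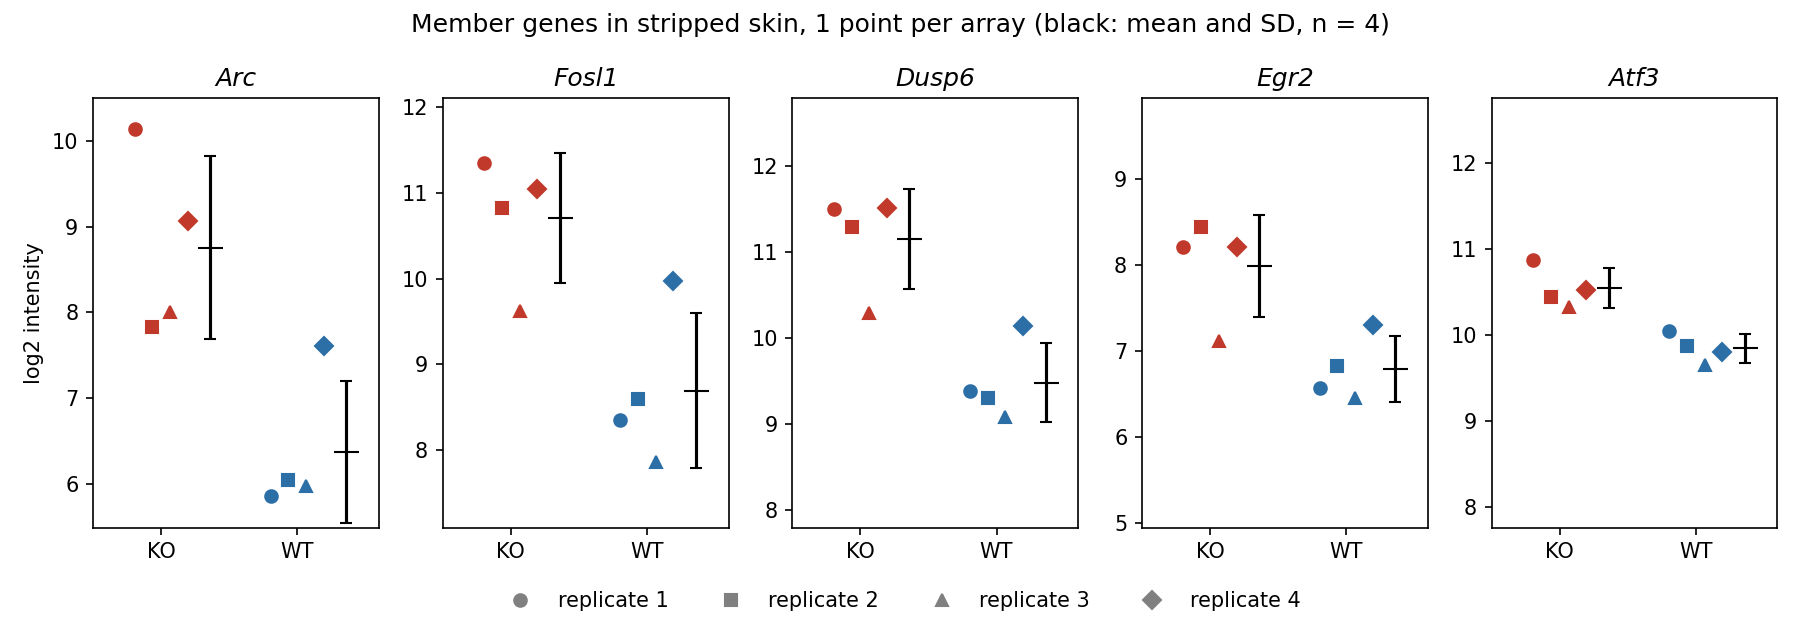
Log2 intensity (y axis, a span of equal height per panel, levels not comparable between genes) of the 5 members on each array, KO left of WT, with the replicate shown by the marker and the mean ± SD (n = 4) in black. KO replicate 3 is the lowest KO value in every panel but Arc, and WT replicate 4 the highest WT value in every panel but Atf3.

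The 250 bases upstream of the annotated start of Egr2 and Atf3 are shown because these are the members whose windows hold a match to any of the motifs listed below. They come from RefSeq (GRCm38.p6), where Egr2, Atf3 and Dusp6 had an entry among the members and Arc and Fosl1 did not. Capitals mark matches, on either strand, to 1 of 7 motifs: the AP-1 site TGANTCA, the cAMP response element TGACGTCA, its 5-base core TGACG, the CArG box (the core of the serum response element), the ETS core CCGGAA, the EGR site GCGNGGGCG and the NF-kB site.
Egr2 (chr10:67537619-67537868, plus strand): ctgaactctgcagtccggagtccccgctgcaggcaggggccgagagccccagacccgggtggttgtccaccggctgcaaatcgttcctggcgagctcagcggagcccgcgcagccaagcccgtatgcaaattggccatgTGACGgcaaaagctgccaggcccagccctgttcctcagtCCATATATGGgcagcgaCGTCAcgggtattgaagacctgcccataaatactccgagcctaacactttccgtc
Atf3 (chr1:191183334-191183583, minus strand): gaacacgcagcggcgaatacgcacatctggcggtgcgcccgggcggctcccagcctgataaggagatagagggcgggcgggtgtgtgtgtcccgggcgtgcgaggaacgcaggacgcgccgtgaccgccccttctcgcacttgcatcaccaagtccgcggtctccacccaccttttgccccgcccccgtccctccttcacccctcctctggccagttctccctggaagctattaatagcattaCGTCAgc

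With the annotated start counted as 0, the Egr2 window held a CArG box from base -72 to base -63 and a TGACG on either side of it, from -111 to -107 and, on the opposite strand, from -55 to -51. The Atf3 window held a TGACG on the opposite strand from -7 to -3. The Dusp6 window (chr10:99262981-99263230, plus strand) held none of the 7. Egr2 has 5 annotated starts, and the window shown belongs to the most upstream of the group of starts that lie nearest to each other. Of 32851 promoter windows of this length, 1.47% held a CArG box and 17.8% a TGACG, every full element counting as a core too. Of the 13 immediate early genes higher in KO with a window, described next, 2 held a CArG box (Egr2 and Zfp36) and 7 a TGACG. A match describes these letters, not a bound site.

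The wider immediate early list held 45 genes, the 5 members among them, of which 20 were named in the authors' table. At an adjusted p under 0.05, 19 were higher and 1 was lower in KO skin, where 15.2% of all probe sets were higher and 6.08% lower. Being named required passing the authors' criteria, which 11.8% of all probe sets met with higher values in KO. Counts of named genes, here and in the lists below, therefore give no support of their own. The median change of the 20 was 1.07, against 0.09 over all probe sets and 0.62 over all named genes. The groups did not overlap in 15 of the 20, against 25.0% of all probe sets and 87.6% of the named genes.

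Among the list genes that are not members, Plaur, the receptor that gathers urokinase at the cell surface, was highest by change. It was at 1.56 ± 0.32 (SE), above the members Egr2 and Atf3. The zinc finger factor gene Klf6 read 12.05, 11.59, 10.96 and 11.72 in KO replicates 1 to 4, against 10.28, 10.17, 10.15 and 10.52 in WT replicates 1 to 4. Its groups did not overlap, and the change was 1.30 ± 0.21. The small MAF factor Mafk was at 1.2 ± 0.22 and Ier2, a nuclear immediate early protein, at 1.12 ± 0.16. Zfp36, which encodes an RNA-binding protein that promotes decay of cytokine mRNAs, was at 1.02 ± 0.17, also without overlap. Klf10, a transcription factor known as an early target of TGF-beta, was at 0.92 ± 0.23 and missed the threshold in 4 of 18 alternatives. Csrnp1 (1.14 ± 0.33) and Phlda1 (1.16 ± 0.35) overlapped between groups and missed the threshold in 10 of 18 alternatives each, centring included. The gene lower in KO, named after its value was seen, was the kinase gene Sik1, at 9.17 to 9.62 in KO against 9.70 to 10.27 in WT skin. Its change was -0.53 ± 0.16 (SE), and it missed the threshold in 9 of the 18 alternatives. Of the 20 genes, 15 passed the threshold after centring, where 6040 of 33793 probe sets did.

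**Figure D2:**
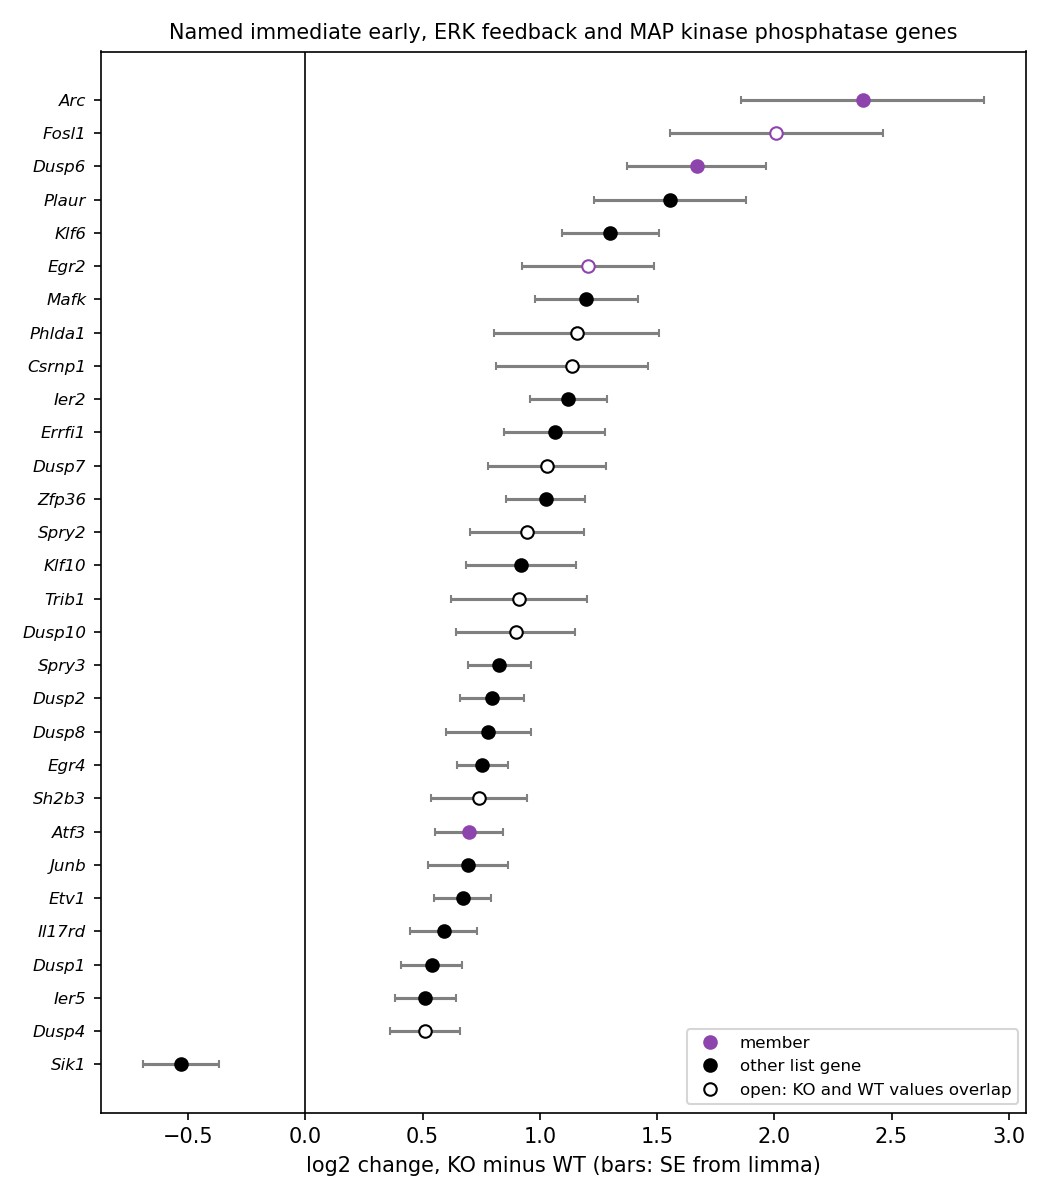
Log2 change, KO minus WT (x axis, bars SE of the limma fit, 4 arrays per genotype), of the named immediate early, ERK feedback and MAP kinase phosphatase genes, with the members in purple and open circles where KO and WT values overlap. Arc at 2.38, Fosl1 at 2.01 and Dusp6 at 1.67 are the furthest right, and Sik1 at -0.53 is the 1 gene left of 0.

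MAP kinase phosphatases remove phosphate from ERK, p38 and JNK, and differ in which of these they prefer and in where in the cell they act. Besides Dusp6, the authors' table named 6 of the 10 genes of that list, all higher in KO skin. Over all probe sets, 11.8% met the same criteria with higher values in KO. Dusp7, a cytoplasmic relative of Dusp6 that also prefers ERK, read 9.66, 9.08, 8.46 and 9.60 in KO replicates 1 to 4, against 8.18, 7.94, 8.01 and 8.55 in WT replicates 1 to 4. WT replicate 4 lay above KO replicate 3, and the change was 1.03 ± 0.25 (SE). Dusp10 and Dusp8, which act mainly on p38 and JNK, were at 0.90 ± 0.26 and 0.78 ± 0.18. The nuclear phosphatase Dusp2 was at 0.80 ± 0.14. Dusp1 (0.54 ± 0.13) and Dusp4 (0.51 ± 0.15), also nuclear, changed least in the list, where the median was 0.80. Dusp4 and Dusp10 overlapped between groups, and missed the threshold in 11 and in 8 of the 18 alternatives. After centring 4 of the 7 named phosphatase genes passed the threshold, and Dusp1, Dusp4 and Dusp10 did not.

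Genes through which ERK limits itself or acts made up a list of 26, of which 11 were named, all higher in KO, with a median change of 0.91. Over all probe sets, 11.8% met the same criteria with higher values in KO. These 11 include the members Fosl1 and Dusp6 as well as Dusp4, Phlda1 and Trib1, already counted above. The groups did not overlap in 5 of the 11, against 25.0% of all probe sets and 87.6% of the named genes. Errfi1, which encodes an inhibitor of the EGFR kinase, read 10.33, 9.84, 9.27 and 10.04 in KO replicates 1 to 4, against 8.64, 8.85, 8.59 and 9.14 in WT replicates 1 to 4, a change of 1.06 ± 0.22 (SE) without overlap. The sprouty genes Spry2 and Spry3, whose family dampens signalling from receptor kinases, were at 0.95 ± 0.24 and 0.83 ± 0.13. Spry2 overlapped between groups and missed the threshold in 4 of the 18 alternatives. Il17rd, which encodes a membrane inhibitor of FGF signalling, was at 0.59 ± 0.14, the ETS factor gene Etv1 at 0.67 ± 0.12 and the adaptor gene Sh2b3 at 0.74 ± 0.21. Sh2b3 overlapped between groups and missed the threshold in 8 of the 18 alternatives, centring included. Trib1, a pseudokinase gene, was at 0.91 ± 0.29 and missed the threshold in 10 of the 18 alternatives. The count past the threshold was less stable than that of the other lists. It was 6 after centring, 7 with cyclic loess, 7 without KO replicate 1, 7 without KO replicate 2, 6 without KO replicate 4, 6 without WT replicate 2 and 7 without WT replicate 3.

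AP-1 proteins belong to a wider family of basic leucine zipper factors. Of 33 genes of that family 10 were named, all higher in KO, Fosl1 and Atf3 among them, with a median change of 0.71. Over all probe sets, 11.8% met the same criteria with higher values in KO. Fosl1 and Mafk were followed by Bach1, a haem-sensing repressor (0.98 ± 0.24, SE), and Atf4, the main factor of the integrated stress response (0.93 ± 0.13). Atf4 read 10.08, 9.82, 9.55 and 9.94 in KO against 8.84, 8.95, 8.90 and 8.99 in WT skin, with no overlap. Jdp2 (0.72 ± 0.16) and Junb (0.69 ± 0.17) encode partners of FOS and JUN proteins, and Nfe2l2 (0.70 ± 0.16) the oxidative stress factor NRF2. Crem (0.57 ± 0.16) missed the threshold in 8 of the 18 alternatives, and Batf3 (0.51 ± 0.12) and Bach1 in 4 each. Bach1 also overlapped between groups.

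Genes commonly cited as targets of AP-1 and EGR factors formed a list of 24, of which 19 were named and all higher in KO, with a median change of 1.35. Over all probe sets, 11.8% met the same criteria with higher values in KO. The largest changes were in Il1b (2.97 ± 0.28, SE), the matrix metalloproteinase gene Mmp3 (2.52 ± 0.30), the prostaglandin synthase gene Ptgs2 (2.49 ± 0.41), and the cytokine genes Il6 (2.14 ± 0.36) and Lif (2.06 ± 0.27). After centring 16 of the 19 passed, where 6040 of 33793 probe sets did. In the list of 17 cytoskeletal genes driven by SRF with its MRTF partners, 3 (17.6%) were named, at 0.50 to 0.78. This share lay near the 11.8% of all probe sets that met the criteria with higher values in KO. Of these 3 genes, 2 passed after centring. Tpm1, a tropomyosin gene, was the highest of them at 0.78 ± 0.17.

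Which array of a genotype was lowest or highest did not enter the choice of genes by KO against WT, though the spread within a genotype did. Of the 19 immediate early genes higher in KO, KO replicate 3 was the lowest KO array in 17, where it was the lowest in 24.4% of all probe sets and in 39.8% of the named genes higher in KO. WT replicate 4 was the highest WT array in 16 of the 19, where it was the highest in 25.2% of all probe sets and in 29.0% of the named genes higher in KO. Both held in 15 of the 19 genes, against 8.25% of all probe sets and 15.5% of the named genes higher in KO. Among the 14 that are not members, KO replicate 3 was lowest in 13 and WT replicate 4 highest in 12. This order was not particular to the immediate early list, and the lists share genes. KO replicate 3 was lowest in 7 of 7 phosphatase, 10 of 11 feedback, 8 of 10 leucine zipper and 18 of 19 target genes named and higher in KO. WT replicate 4 was highest in 6, 8, 7 and 14 of them, in the same order of lists. For the 19 immediate early genes, the counts were also 17 and 16 after centring, quantile normalization and cyclic loess. As deposited, the exceptions were Arc, lowest in KO replicate 2; Atf3, highest in WT replicate 1; Ier5, highest in WT replicate 2; and Egr4, lowest in KO replicate 4 and highest in WT replicate 1. Ier5 and Egr4 are named here after their values were seen.

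Over the 19 genes, the median deviation from the mean of the genotype was 0.35, 0.01, -0.62 and 0.22 in KO replicates 1 to 4, and -0.09, -0.04, -0.19 and 0.34 in WT replicates 1 to 4. Over all probe sets these medians lay between -0.01 and 0.01 for each array. Of 7 EGFR ligand genes 4 were named, Ereg, Epgn, Areg and Hbegf, where 11.8% of all probe sets met the criteria with higher values in KO. Their median change was 2.53, and all 4 had their lowest KO value in replicate 3 and their highest WT value in replicate 4. In the targeted gene, KO replicate 3 had the lowest Cdsn value of the KO arrays, at 8.0 with KO replicate 1 close at 8.09, and WT replicate 4 the highest of the WT arrays, at 12.10. Because Cdsn was lower in KO, these 2 arrays lay furthest from the other genotype in Cdsn. In most of the 19 genes they lay nearest to it.

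**Figure D3:**
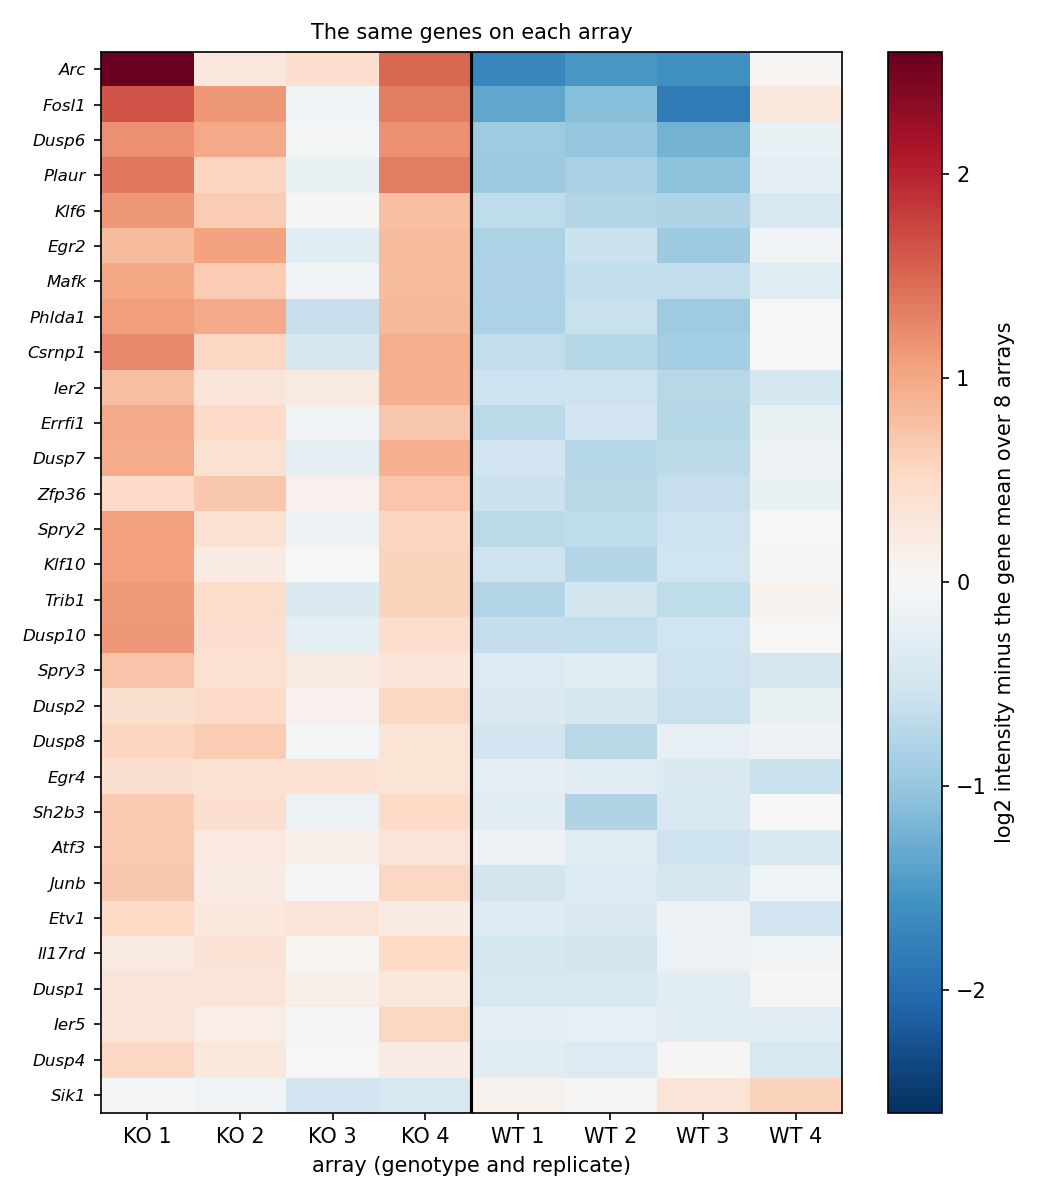
Log2 intensity minus the gene's mean over the 8 arrays (colour), for the named immediate early, ERK feedback and MAP kinase phosphatase genes (rows, by size of change) on each array (columns, KO left of WT). KO replicate 3 is paler than the other KO columns and WT replicate 4 paler than the other WT columns in most rows.

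**Figure D4:**
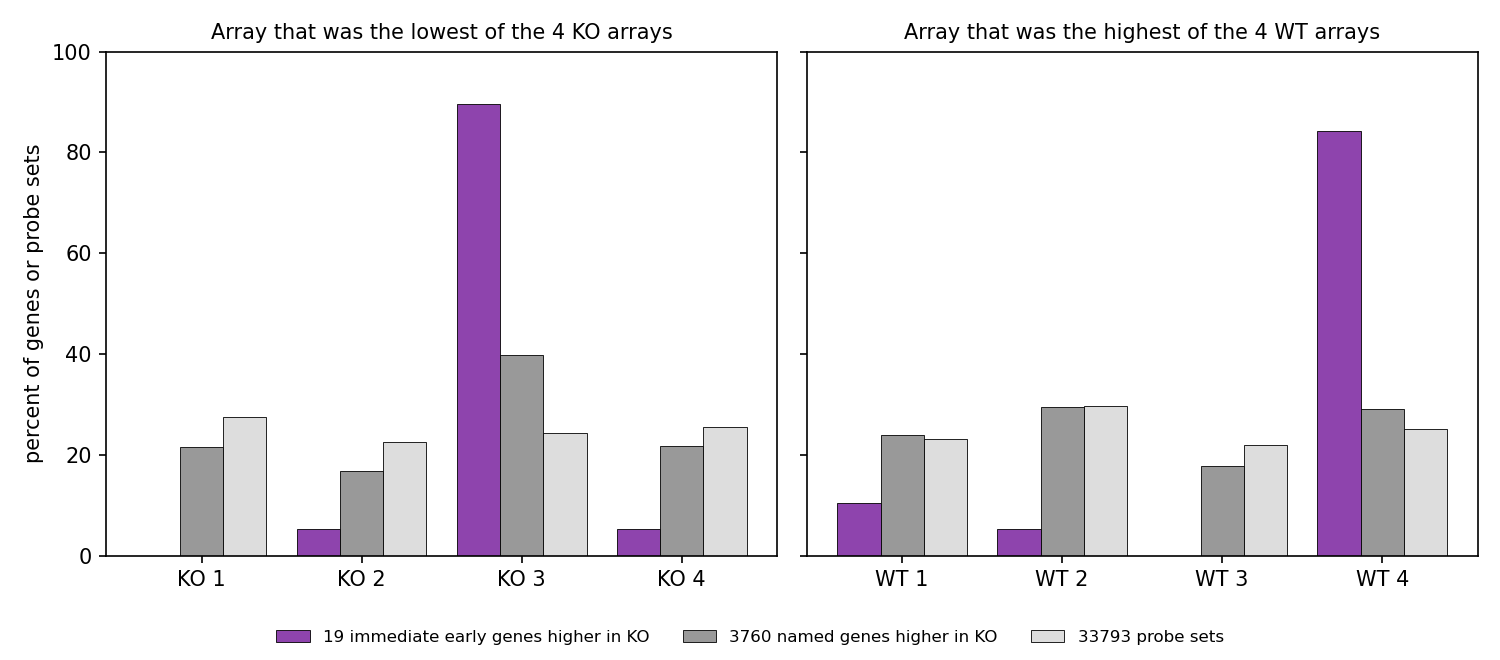
Percent of genes or probe sets (y axis) in which each array was the lowest of the 4 KO arrays (left) or the highest of the 4 WT arrays (right), for the 19 immediate early genes higher in KO, the 3760 named genes higher in KO and all 33793 probe sets. KO replicate 3 reaches 89.5% and WT replicate 4 reaches 84.2% for the immediate early genes.

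Some markers of other cell types were also named in the authors' table. Being named required a difference between genotypes, and the sums below cover named markers only. These counts and sums therefore give no support of their own. Of 12 markers of Langerhans and migratory dendritic cells 8 were named, all higher in KO, and their summed linear intensity ran from 567 to 761 in KO and from 314 to 418 in WT skin. Some of these 8 lie on chromosome 17, as does Cdsn, and so do a macrophage and a neutrophil marker among those below. Of the genes named elsewhere in the text, Dusp1, Sik1 and Tnfrsf12a also lie on chromosome 17, and none of the members does. Cd207, which marks Langerhans cells, was at 0.80 ± 0.12 (SE) and Ccr7, the receptor that guides their migration, at 0.72 ± 0.14. Among these 8 markers, KO replicate 3 was the lowest KO array in 1 and WT replicate 4 the highest WT array in 1, while KO replicate 1 was the lowest in 6 and WT replicate 2 the highest in 5. Of 10 macrophage markers 6 were named, with sums of 1230 to 1330 in KO and 678 to 899 in WT skin, and KO replicate 3 was lowest in 1 and WT replicate 4 highest in 3 of them. Sums of the 3 named neutrophil markers of 8 ran from 95.2 to 235 in KO and from 48.2 to 72.0 in WT skin, with KO replicate 3 lowest and WT replicate 4 highest in 0 of 3. Sums of the 4 named T cell markers of 8 ran from 491 to 750 in KO and from 369 to 422 in WT skin, with KO replicate 3 lowest in 2 and WT replicate 4 highest in 1 of the 4. Most of these sums came from Thy1, at 8.64 to 9.40 in KO and 8.30 to 8.56 in WT skin. The rest of the 4 read 3.21 to 5.50 over both genotypes. Higher in KO and named were 1 of 6 mast cell, 1 of 12 muscle, 1 of 8 endothelial and 1 of 9 fibroblast markers, where 11.8% of all probe sets met the same criteria. The endothelial and the fibroblast gene missed the threshold after centring. It was then passed by 7 of 8 Langerhans and dendritic, 5 of 6 macrophage, 2 of 3 neutrophil and 3 of 4 T cell markers named. None of 7 basal keratinocyte markers was named, and the 2 named suprabasal markers of 8, Flg and Lor, were lower in KO. The lowest reading of a named marker was 2.99, and some markers read below the array medians of 4.70 to 4.88. Cd207, at 3.72 to 4.77, did so on all 8 arrays. No background value was used here to say which were detected. The part of any of these cell types in the changes of the members was not tested.

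The genes nearest to Arc, Fosl1 and Dusp6 over the 8 arrays were found by centring each of the 5080 named genes on its own mean and taking the mean absolute difference of the 8 values, in log2 units. This likeness includes the genotype difference by which all named genes were chosen, and is a description. Nearest to Fosl1 was the EGFR ligand gene Hbegf at 0.15, followed by Plet1, which encodes an epithelial surface protein, at 0.24 and the EGFR ligand gene Areg at 0.26, where the median gene stood at 0.94. Hbegf read 9.48, 8.52, 7.74 and 9.17 in KO replicates 1 to 4, against 6.59, 6.89, 6.48 and 8.14 in WT replicates 1 to 4, and like Fosl1 was higher in WT replicate 4 than in KO replicate 3.

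Nearest to Dusp6 were Tnfrsf12a, the receptor of the cytokine TWEAK, at 0.11, Pxdc1 at 0.13 and Plet1 at 0.13, where the median gene stood at 0.64. Tnfrsf12a read 9.83, 9.68, 8.78 and 10.04 in KO against 7.71, 7.89, 7.52 and 8.22 in WT skin. Arc had no neighbour as near. Gm11545 stood at 0.29, the cytokine gene Il24 at 0.30 and Ptgs2 at 0.37, where the median gene stood at 1.01. Il24 read 7.73, 6.14, 5.53 and 7.22 in KO against 3.85, 4.67, 3.89 and 5.23 in WT skin, so that it shared with Arc a high value in KO replicate 1 and the highest WT value in replicate 4.

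**Figure D5:**
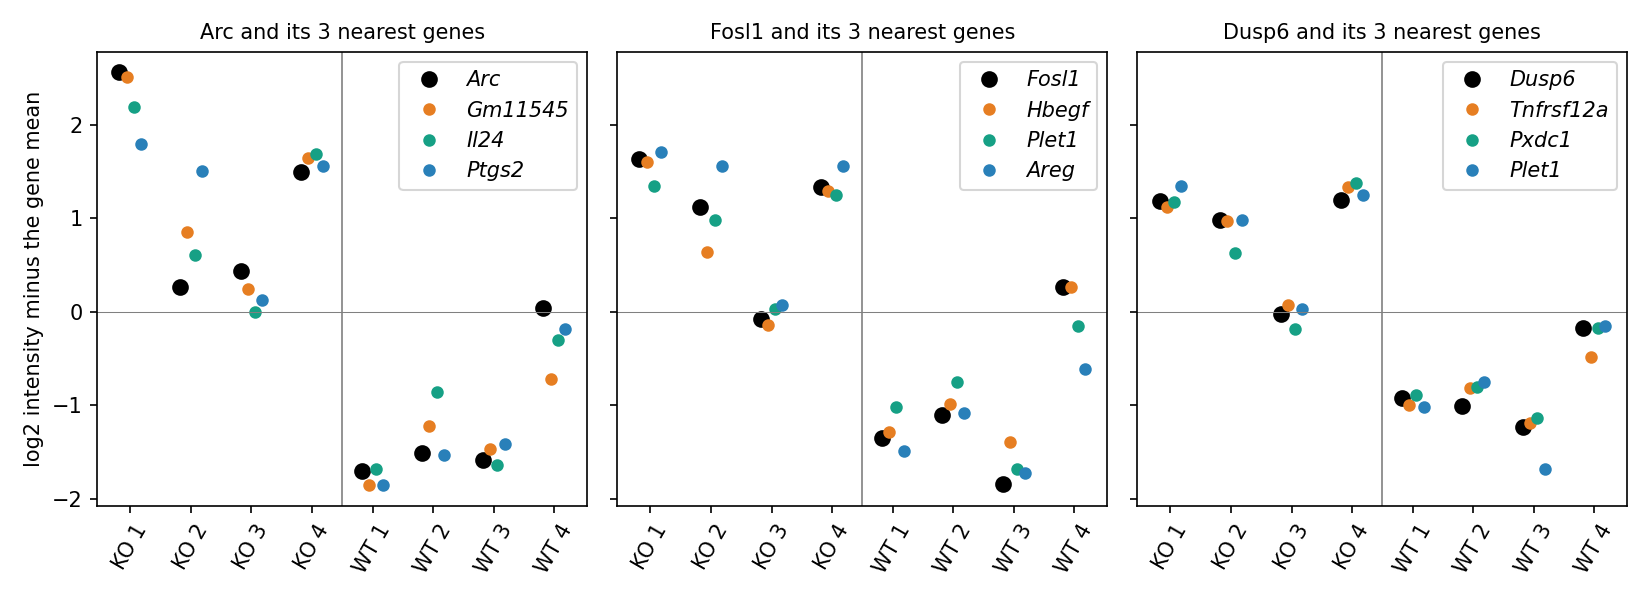
Log2 intensity minus the gene's mean over 8 arrays (y axis) of Arc, Fosl1 and Dusp6 (black) and of the 3 genes nearest to each (colours), on each array (x axis, KO left of WT). The points of Dusp6 and its neighbours, at 0.11 to 0.13 apart on average, lie closer together than those of Arc and its neighbours, at 0.29 to 0.37.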

How the data were processed

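Affymetrix Gene Mouse 2.0 ST arrays were used, per the file headers. For each array the authors deposited a log2 intensity per probe set. RMA is named in the submitters' processing notes; its version, its settings and the genome build are not given in the sources used. The authors' deposited table holds the genotypes' mean log2 intensities, the fold change as a ratio (KO over WT), its log2 value, p-values raw and Benjamini-Hochberg adjusted, the probes per probe set and an annotation class score for 5460 probe sets, per the file headers.

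KO minus WT was estimated from the deposited values with lmFit and eBayes of limma 3.58.1 under R 4.3.3, without covariates, and p-values were adjusted by Benjamini-Hochberg across all 33793 probe sets. Counts past the threshold refer to an adjusted p below 0.05 in this fit, which was tested on simulated data and returned all 5460 probe sets at the authors' criteria. The embryos are separate individuals. The number of arrays limits the precision.

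Gene names were given only for the authors' table, so unchanged list members could not be named. The members, 8 pathway lists and 11 marker lists were chosen with earlier results of these data known. The results of 1 pathway list and 1 marker list are not reported here. The text names the members, Cdsn, up to 8 further genes per pathway list by size of change, the 3 genes nearest to Arc, Fosl1 and Dusp6 and up to 2 markers per list. Scaling, filters, moderation, array weights, replicates and the replicate number as a block were varied in 18 alternatives. Each member had 1 probe set, so the mean over probe sets was not run. The planned comparison of protein sequences was not made. For Ereg, the probe set with the highest mean was used, with a change of 3.00, and the other probe set had a change of 1.71.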

Additional observations from a re-analysis of the deposited data

Results flagged for a closer look

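In 136 groups of 4 values, KO and WT for each of 68 genes (the named genes of the pathway lists, members included, with Cdsn and the genes nearest to Arc, Fosl1 and Dusp6), there were 11 in which an extreme array lay further from its neighbour, as a share of the group's range, than Dixon's 95% limit for 4 values. Chance gives about 1 in 20 groups, or 6.8 here. KO replicate 3 held 5 of the 11, each the lowest of the KO arrays: Phlda1 at 7.47 (others 8.92 to 9.16), Areg at 8.05 (9.54 to 9.69), Il6 at 7.79 (9.38 to 9.46), Ptgs2 at 9.01 (10.40 to 10.68) and Sprr1a at 12.63 (13.16 to 13.24). WT replicate 4 held 4, each the highest of the WT arrays: Arc at 7.61 (5.86 to 6.05), Nfe2l2 at 9.51 (9.09 to 9.13), Ereg at 8.75 (5.91 to 6.27) and Sprr1b at 11.38 (9.98 to 10.17). Jdp2 was high in KO replicate 1 at 7.37 (7.01 to 7.03) and Mmp9 in KO replicate 4 at 5.31 (4.83 to 4.86). Arc was the 1 member among them. Sprr1a and Mmp9 are named here after their values were seen.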

How the results depend on the processing

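Each member stayed higher in KO in all 18 alternatives, with changes of 1.92 to 3.04 for Arc, 1.73 to 2.80 for Fosl1, 1.54 to 2.18 for Dusp6, 1.06 to 1.67 for Egr2 and 0.56 to 0.84 for Atf3. The members were chosen by the threshold on the same arrays, so their passing it again gives no support of its own. All 5 members passed it in every alternative but 1. Without variance moderation 2 did, and the counts past the threshold fell to 10 of 20 immediate early, 6 of 10 leucine zipper, 3 of 7 phosphatase, 5 of 11 feedback, 1 of 4 EGFR ligand and 11 of 19 target genes. After centring 4 phosphatase and 6 feedback genes passed, with cyclic loess 7 feedback genes, and with quantile normalization 1 of 3 cytoskeletal genes. Leaving out 1 array at a time left 6 to 11 feedback genes and 14 to 19 immediate early genes. Centring moved the share of calls higher in KO to 49.1%, where it was 71.4% as deposited. Over all 33793 probe sets 7194 passed as deposited, 6040 after centring, 6398 with quantile normalization, 6392 with cyclic loess and 4923 without variance moderation. With low probe sets left out, 3299 passed, where 16897 were tested.

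The titles number the embryos 1 to 4 in both genotypes. Same-numbered arrays correlated in their deviations at -0.03, 0.14, 0.23 and 0.01, and arrays of unlike number at -0.21 to 0.19. With 4 arrays per genotype, these values cannot decide whether the numbers pair the samples, and the labels do not say. With the replicate block, all 5 members, 19 immediate early, 6 phosphatase and 10 feedback genes passed, and 6250 probe sets in all.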
